A study of Homo sapiens with 8 samples.

Results

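Endothelial cells take on arterial, venous or lymphatic identity, and 8 genes tied to the venous and lymphatic choices are described here in endothelial cells made from human stem cells: NR2F1, NR2F2, PROX1, MAF, PDPN, RELN, FLRT2 and TLL1. They were chosen by gene symbol, with no measured value in the rule, and make up 8 of the 30386 genes listed in the deposited table. All 8 have a row. The RNA came from cells of the established human line WTC-TJP1, an induced pluripotent stem cell line, differentiated into endothelial cells (iEC, 4 libraries) or, in a matched differentiation, into retinal endothelial cells (iREC, 4 libraries), all taken at passage 1. Libraries are named by group and replicate letter, C, D, E and F in each group, and where 4 values are given for a group they stand in that order. Both groups come from a single line, no other genotype or drug treatment is named for either, the recipe that sets iREC apart from iEC is not given in the sources used here, and the cell type label is the same for both, so the group rests on the sample title and group label. Nothing in the labels says that replicates were separate cultures, so each p-value measures only the spread between these samples, which may be technical.

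In the embryo, the nuclear receptor NR2F2 keeps veins venous by restraining Notch signalling, and lymphatic vessels then arise when venous endothelial cells switch on the homeobox factor PROX1, with which NR2F2 forms a complex. Lymphatic endothelium goes on to make surface and secreted proteins such as podoplanin (PDPN) and reelin (RELN), and MAF is a basic leucine zipper factor found in it. Retinal vessels sprout largely from veins, and the neural retina holds no lymphatic vessels. NR2F1 is the closest relative of NR2F2. FLRT2 is a membrane protein that binds the guidance receptors of the UNC5 family and the latrophilins, and TLL1 is a secreted protease of the tolloid family that cuts BMP antagonists and procollagens.

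The libraries held 13739364 to 16971865 counted reads. Expression is given as CPM, the counts of a gene scaled to a common library total with TMM factors, and the floor of detection was set at 3 counts, worth 0.178 to 0.215 CPM. The endothelial label was met: PECAM1 and CDH5, which build endothelial junctions, lay between 493 and 2605 CPM in every library, though both were lower in iREC (PECAM1 by 2.96-fold, edgeR adjusted p = 0.000632, and CDH5 by 1.69-fold, edgeR adjusted p = 0.0298, the second of which was lost without iEC D, iEC E, iEC F or iREC D and with the replicate block, where the adjusted p was 0.0803). Library iREC F stood apart. Its summed epithelial markers (6 genes) reached 4855 CPM against 301 to 1067 CPM in the other iREC libraries and 391 to 1171 CPM in iEC, and its mural and mesenchymal markers (10 genes) 4267 CPM against 579 to 1184 CPM in the other iREC libraries and 209 to 414 CPM in iEC. Its endothelial markers (6 genes) were the lowest of all, 3195 CPM against 5248 to 7665 CPM elsewhere. Its pluripotency markers (4 genes), nearly all LIN28A, summed to 482 CPM against 20.7 to 148 CPM in the other iREC libraries and 8.66 to 33.1 CPM in iEC. Some genes of the lists for other lineages were at or under the floor in every library (PAX6 for neural, ALB for liver, SPI1 for blood, NANOG for pluripotent and MYH6 and TNNI1 for heart cells). Others on those lists were not. TUBB3 of the neural list had means of 3.29 CPM in iEC and 1.15 CPM in iREC (edgeR adjusted p = 0.0116). POU5F1 of the pluripotency list had means of 0.372 and 0.653 CPM, and AFP of the liver list 0.205 and 0.674 CPM. Further genes of the liver and blood lists were higher in iREC. The liver list (4 genes, 1 tested) summed to 16.3 to 73.4 CPM in iREC against 0.215 to 0.975 CPM in iEC, nearly all of it TTR (edgeR adjusted p = 9.64e-05). Of the blood list (5 genes, 3 tested), PTPRC (0 in iEC, 1.63 ± 0.845 CPM in iREC, edgeR adjusted p = 0.00243) and CD34, which endothelium also makes (114 ± 56.7 and 405 ± 206 CPM, edgeR adjusted p = 0.0199), were higher in iREC, and RUNX1 was lower. In such bulk RNA, fewer cells of a type and less RNA per cell cannot be told apart.

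Of the 8 genes, 6 passed the filter on low counts (15330 of all genes did) and 5 of these were called between the groups at an edgeR adjusted p under 0.05. Of those 5, TLL1, NR2F1, MAF and FLRT2 rose in iREC and NR2F2 fell. Over all tested genes, 25% were called, 13.2% as higher in iREC and 11.7% as lower. PDPN was tested and not called, and PROX1 and RELN were too scarce to be tested. The groups did not overlap for the 4 genes that rose, as was the case for 29.1% of all tested genes. The median log2 fold change of the 6 tested genes was 2.81, against 0.020 over all tested genes. This median leaves out PROX1 and RELN, and the 8 genes were chosen with earlier results of these data known.

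The sequences upstream of the 4 genes that rose are shown because these genes moved in the same direction in the same cells. Each run holds the 250 bases before the transcription start given by RefSeq on GRCh38.p14, read 5′ to 3′ on the strand of the gene. Capitals mark matches, on either strand, to 6 short motifs: AGGTCA, the half-site that NR2F receptors bind; TGCTGA, the core of the MAF site; ACAAT, bound by SOX factors; AGATAA, bound by GATA factors; and the general promoter elements CCAAT and TATAAA. No matches overlapped each other. The window of NR2F1 is chr5:93582972-93583221 on the plus strand. That of TLL1 is chr4:165872987-165873236 on the plus strand, that of MAF chr16:79600738-79600987 on the minus strand, and that of FLRT2 chr14:85529894-85530143 on the plus strand.
NR2F1: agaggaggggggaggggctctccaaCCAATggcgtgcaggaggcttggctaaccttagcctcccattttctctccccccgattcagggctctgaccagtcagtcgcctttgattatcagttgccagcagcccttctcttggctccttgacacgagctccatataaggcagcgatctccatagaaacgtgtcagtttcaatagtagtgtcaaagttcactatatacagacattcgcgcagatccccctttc
TLL1: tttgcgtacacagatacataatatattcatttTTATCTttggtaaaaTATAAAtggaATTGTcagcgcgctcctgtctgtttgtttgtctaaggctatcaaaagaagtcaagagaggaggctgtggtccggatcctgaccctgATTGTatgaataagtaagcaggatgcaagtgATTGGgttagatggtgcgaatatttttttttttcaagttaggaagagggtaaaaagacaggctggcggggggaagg
MAF: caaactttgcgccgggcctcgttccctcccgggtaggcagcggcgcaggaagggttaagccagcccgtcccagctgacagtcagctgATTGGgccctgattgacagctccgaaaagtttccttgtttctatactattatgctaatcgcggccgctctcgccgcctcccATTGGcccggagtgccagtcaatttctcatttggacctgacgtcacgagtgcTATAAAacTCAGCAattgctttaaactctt
FLRT2: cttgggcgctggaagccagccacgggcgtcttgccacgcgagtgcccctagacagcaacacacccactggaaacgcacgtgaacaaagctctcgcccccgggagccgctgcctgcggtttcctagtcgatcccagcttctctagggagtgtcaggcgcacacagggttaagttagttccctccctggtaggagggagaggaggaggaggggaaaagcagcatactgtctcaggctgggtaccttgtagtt

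A match in such a window is a description of letters only. CCAAT was found at 225 bases before the start of NR2F1, at 163 and 82 bases before that of MAF and at 76 bases before that of TLL1, and 32.0% of 35116 promoter windows of the same length hold it. In MAF and TLL1 these matches were to its reverse complement. TLL1 had the reverse complement of ACAAT at 193 and 107 bases before its start (24.6% of windows hold this motif) and that of AGATAA at 218 bases (9.17% of windows). It had TATAAA itself at 203 bases (10.7%). MAF had TATAAA at 30 bases before its start and the reverse complement of the MAF core TGCTGA at 22 bases (14.0% of windows). FLRT2 had none of the 6 motifs. The NR2F half-site AGGTCA was in 0 of the 6 windows matched to the 8 genes and in 12.1% of all windows. GC content was 40.4% for TLL1, 52.4% for NR2F1, 54.4% for MAF and 60.4% for FLRT2, with a median of 58.0% over all windows.

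**Figure D1:**
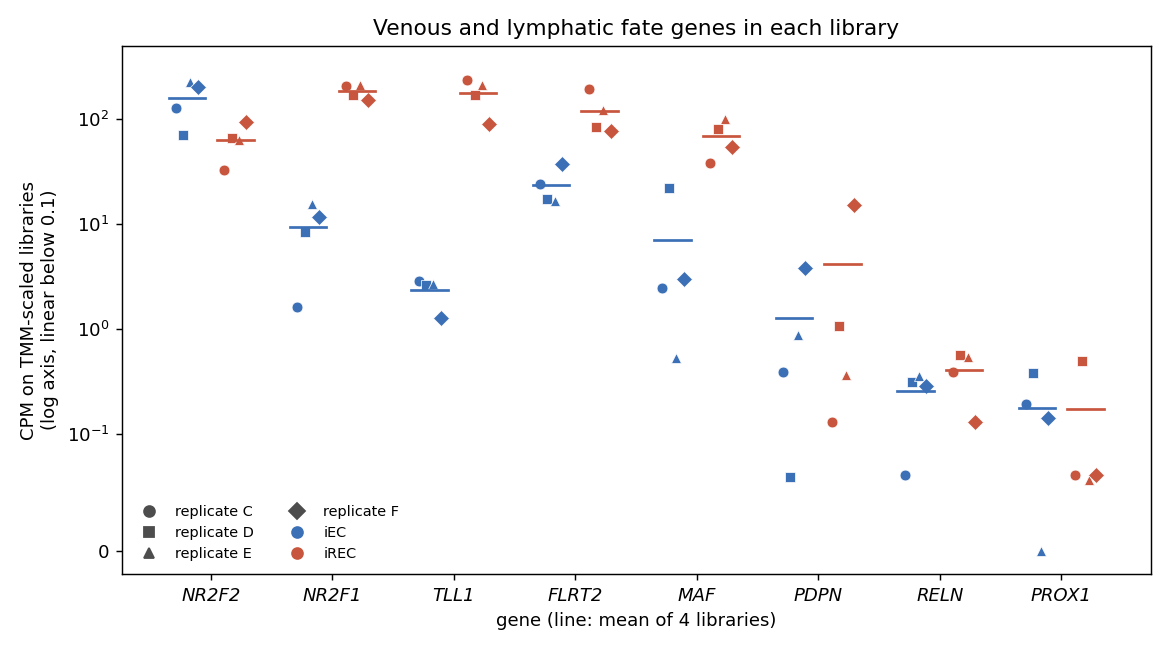
CPM of the 8 venous and lymphatic fate genes in each library, on a log axis that is linear below 0.1, with iEC in blue, iREC in red, 1 symbol per replicate letter and a line at the mean of 4 libraries. TLL1, NR2F1, MAF and FLRT2 were higher in all iREC libraries than in any iEC library, NR2F2 was lower on average with overlapping groups, PDPN stood at 15.2 CPM in iREC F, and RELN and PROX1 were near the floor in every library.

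Of the transcription factors, the nuclear receptor NR2F1 (ENSG00000175745, chromosome 5, 93583224 to 93594615, plus strand) was at 1.63, 8.41, 15.7 and 11.7 CPM in iEC and at 206, 169, 214 and 154 CPM in iREC. Every iREC library was far above every iEC library, and iEC C was the lowest. The mean rose 19.8-fold, from 9.38 ± 5.98 to 186 ± 29.1 CPM (SD, n = 4 each), a change of 4.31 ± 0.54 on the log2 scale (SE; edgeR adjusted p = 0.000581). It was 4.39 without iREC F and between 3.94 and 4.68 under all 17 alternatives, each time called.

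NR2F2 (ENSG00000185551, chromosome 15, 96325938 to 96340263, plus strand) went the other way. It was at 129, 71.2, 229 and 204 CPM in iEC and at 33.0, 65.9, 63.1 and 94.1 CPM in iREC. The groups overlapped, since iEC D lay below iREC F. The mean fell 2.47-fold, from 158 ± 71.8 to 64.0 ± 25.0 CPM (SD, n = 4 each), a change of -1.30 ± 0.40 on the log2 scale (SE; edgeR adjusted p = 0.0392). This call was close to the threshold: it was lost, with edgeR adjusted p from 0.0583 to 0.110, when iEC C, iEC E, iEC F, iREC C, iREC D or iREC E was left out, and held without iEC D (0.0125) or iREC F (0.0232).

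Set side by side per length of gene model, the pair changed places. In iEC, NR2F2 was at 24.5 ± 11.1 CPM per kilobase and NR2F1 at 2.17 ± 1.39 CPM per kilobase, and in iREC, NR2F1 was at 43.1 ± 6.75 and NR2F2 at 9.91 ± 3.87 CPM per kilobase (SD, n = 4). NR2F1 thus made up 1.86%, 15%, 9.35% and 7.94% of the pair's level in iEC and 90.4%, 79.3%, 83.6% and 70.9% in iREC. No library lay between 15% and 70.9%. The summed level of the pair was 13.0 to 39.0 CPM per kilobase in iEC and 49.4 to 59.4 CPM per kilobase in iREC, so the groups did not overlap in the sum either, and iREC varied less (SD 4.53 against 12.1). These shares and sums are given as descriptions, with no test.

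**Figure D2:**
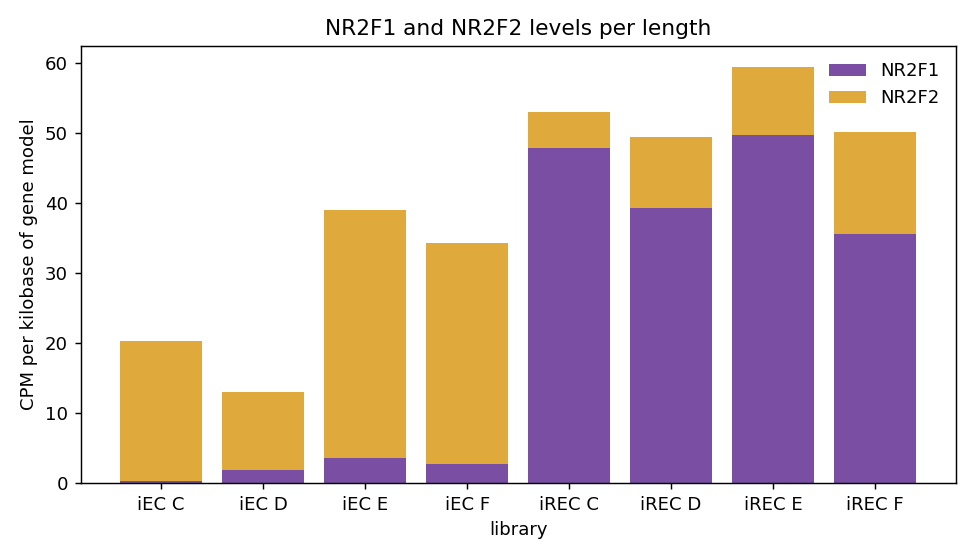
Level per length (CPM per kilobase of gene model) of NR2F1 (purple) and NR2F2 (yellow), stacked for each of the 8 libraries. NR2F2 makes up most of each iEC bar and NR2F1 most of each iREC bar, with the NR2F1 share at 15% or less in iEC and 70.9% or more in iREC.

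Reads could be split between related or overlapping genes only to a small extent at this locus pair. NR2F1 and NR2F2 shared no run of 50 bases with each other. NR2F1-AS1, an antisense RNA that starts inside NR2F1, shares 158 exon bases with it, 3.66% of the exon bases of NR2F1. Its level rose as well, from 3.22 ± 1.36 to 12.8 ± 4.71 CPM (1.98 ± 0.41 SE on the log2 scale, edgeR adjusted p = 0.00766). Whether the counting used the strand is not known, so reads over the shared bases cannot be told apart. NR2F2-AS1 overlaps the span of NR2F2 but no exon base, and was too scarce to be tested (1.11 ± 0.944 CPM in iEC, 0.376 ± 0.625 CPM in iREC). Other orphan receptors moved less: with NR2F1 and NR2F2 set aside, 2 of 5 tested relatives were called (25% over all tested genes), RXRA, the common partner of nuclear receptors (0.81 ± 0.22 SE on the log2 scale, edgeR adjusted p = 0.0261, with overlapping groups), and NR2C1 (0.70 ± 0.16, edgeR adjusted p = 0.0122). The RXRA call was lost without iEC C, iEC E, iEC F, iREC D or iREC E. NR2F6, the third NR2F receptor, was at 78.0 ± 4.73 and 66.3 ± 7.05 CPM (edgeR adjusted p = 0.165).

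PROX1 (ENSG00000117707, chromosome 1, 213983181 to 214041502, plus strand) was barely detected in either group. Its counts were 3, 6, 0 and 2 reads in iEC and 1, 7, 1 and 1 reads in iREC. In 6 of the 8 libraries PROX1 was at or under the floor of 3 counts, and D held the most in each group. The groups summed to 11 and 10 reads, a ratio of library-scaled totals of 0.926 with a counting interval of 0.353 to 2.40, so no difference was detectable at this depth. Per length, PROX1 lay with RELN at the bottom of the 8 genes in both groups (0.0201 ± 0.0176 and 0.0194 ± 0.0244 CPM per kilobase, SD, n = 4).

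MAF (ENSG00000178573, chromosome 16, 79585843 to 79600714, minus strand) was at 2.47, 22.1, 0.533 and 3.01 CPM in iEC and at 38.4, 81.7, 100.3 and 54.6 CPM in iREC. The groups did not overlap, and iEC D was the highest iEC library by a wide margin. The mean rose 9.80-fold, from 7.02 ± 10.1 to 68.7 ± 27.6 CPM (SD, n = 4 each), a change of 3.29 ± 0.91 on the log2 scale (SE; edgeR adjusted p = 0.0269). Without iEC D it was 5.11 (edgeR adjusted p = 0.000721), while the call was lost, with edgeR adjusted p from 0.0626 to 0.0673, without iEC C, iEC F, iREC D or iREC E.

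Of 9 other basic leucine zipper factors of the MAF network that were tested, 4 were called, 3 higher and 1 lower in iREC, with a median of -0.07. Over all tested genes, 25% were called. BACH2, a repressor that pairs with small MAF proteins, rose (2.56 ± 0.31, edgeR adjusted p = 0.000482), and the small factor MAFF, which lacks an activation domain, fell from 98.8 ± 29.9 to 13.2 ± 6.09 CPM (-2.90 ± 0.37 on the log2 scale, edgeR adjusted p = 0.000565).

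Among the surface and secreted proteins, TLL1 (ENSG00000038295, chromosome 4, 165873258 to 166103895, plus strand) moved furthest. It was at 2.86, 2.65, 2.72 and 1.29 CPM in iEC and at 239, 172, 211 and 90.8 CPM in iREC. Library F was the lowest in each group, and the groups were far apart. The mean rose 74.8-fold, from 2.38 ± 0.734 to 178 ± 64.3 CPM (SD, n = 4 each), a change of 6.21 ± 0.39 on the log2 scale (SE; edgeR adjusted p = 2.03e-05). It was 6.43 without iREC F and between 6.01 and 6.43 under all 17 alternatives, each time called.

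The relatives of TLL1 were tested only in part. BMP1, the founding tolloid protease, was at 69.1 ± 24.2 CPM in iEC and 56.5 ± 15.1 CPM in iREC (-0.29 ± 0.26 SE on the log2 scale, edgeR adjusted p = 0.453), and TLL2 was too scarce to be tested (0.195 to 0.296 CPM in iEC and 0.305 to 1.38 CPM in iREC). Of the list of tolloid proteases, their substrates and partners, 7 genes were tested besides TLL1 and 2 were called, both higher in iREC (5 calls with TLL1 included without the filter on low counts or with the replicate block, against 3). The share called over all tested genes was 25%. BMPER, a secreted BMP-binding protein related to chordin, rose from 0.655 ± 0.376 to 104 ± 31.9 CPM (7.29 ± 0.43 on the log2 scale, edgeR adjusted p = 1.75e-05). Its iEC level rests on 19 reads or fewer in each library. BGN, the proteoglycan biglycan, rose from 25.7 ± 21.9 to 489 ± 36.9 CPM (4.25 ± 0.66 on the log2 scale, edgeR adjusted p = 0.00173). The list median was 1.88 without TLL1 and 2.63 with it, against 0.020 over all genes. CHRD, which encodes the tolloid substrate chordin, was too scarce to be tested, at 0.786 CPM or less in every library.

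FLRT2 (ENSG00000185070, chromosome 14, 85530144 to 85654426, plus strand) was at 24.3, 17.5, 16.5 and 37.2 CPM in iEC and at 194, 84.6, 123 and 76.6 CPM in iREC. All iREC libraries were higher than all iEC libraries. The mean rose 5-fold, from 23.9 ± 9.54 to 119 ± 53.4 CPM (SD, n = 4 each), a change of 2.32 ± 0.36 on the log2 scale (SE; edgeR adjusted p = 0.00174). It lay between 1.98 and 2.62 under all 17 alternatives, each time called, and was 2.48 without iREC F.

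Of the receptors and relatives of FLRT2, 9 were tested and 6 called (25% over all tested genes), 4 higher and 2 lower in iREC, with a list median of 0.14 without FLRT2 and 0.34 with it. The latrophilin ADGRL1, a binding partner of FLRT proteins, rose from 7.85 ± 2.40 to 30.5 ± 5.83 CPM (1.96 ± 0.24 on the log2 scale, edgeR adjusted p = 0.000493). UNC5C, a guidance receptor of the family that FLRT2 binds, rose from 27.6 ± 15.6 to 90.7 ± 28.4 CPM (1.72 ± 0.43 on the log2 scale, edgeR adjusted p = 0.018). The 2 that fell were FGFR1, a growth factor receptor that FLRT proteins associate with (-1.34 ± 0.16, edgeR adjusted p = 0.000402), and ADGRL4, an endothelial adhesion receptor related to the latrophilins (-1.28 ± 0.27, edgeR adjusted p = 0.00858). Without iEC E the list, FLRT2 included, held 4 calls in place of 7, and the UNC5C call was among those lost (edgeR adjusted p = 0.0592). FLRT3, the other family member tested, was at 3.43 to 8.34 CPM in iEC and at 1.31, 1.93, 1.65 and 20.5 CPM in iREC (0.14 ± 0.85, edgeR adjusted p = 0.922). Without iREC F its log2 fold change was -1.82 (edgeR adjusted p = 0.00684), and the sign was also negative with limma-voom, with the replicate block and without iEC E.

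PDPN (ENSG00000162493, chromosome 1, 13583465 to 13617957, plus strand) was low except in the F libraries. Its counts were 6, 1, 15 and 53 reads in iEC and 2, 15, 6 and 232 reads in iREC, which is 0.390, 0.0632, 0.888 and 3.79 CPM and 0.131, 1.07, 0.366 and 15.2 CPM. The groups overlapped widely, and F was the highest library in each. The means were 1.28 ± 1.71 and 4.19 ± 7.35 CPM (SD, n = 4 each), with a change of 1.72 ± 1.40 on the log2 scale (SE; edgeR adjusted p = 0.409). Without iREC F the sign turned (-1.29, edgeR adjusted p = 0.436).

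The library that holds most PDPN is the library that stands apart in its marker genes. PDPN is known from lymphatic endothelium but also from mesothelium, alveolar epithelium and stromal cells, and so lists of those cells are given beside it. In iREC F, the epithelial keratin KRT8 was at 3025 CPM (98.6 to 602 CPM in the other iREC libraries), the fibrillar collagen COL3A1 at 1641 CPM (32.5 to 254 CPM) and LRRN4, a mesothelial marker, at 498 CPM (1.18 to 82.2 CPM). The mesothelial and alveolar list (6 genes, 3 tested) summed to 512 CPM in iREC F, nearly all of it LRRN4. It summed to 11.5 to 89.4 CPM in the other iREC libraries and to 101 to 121 CPM in iEC, where HOPX alone made up 88.4 to 105 CPM. WT1, the mesothelial transcription factor, was at 7.79 CPM in iREC F and at 0.428 CPM or less elsewhere. Other members of that list were low or level in the means of iEC and iREC: MSLN (0.0306 and 0.0654 CPM), UPK3B (0 and 0.210 CPM) and AGER (7.37 and 7.16 CPM). Among the epithelial markers besides KRT8, the means of EPCAM were 1.46 and 1.53 CPM and those of ESRP1 0 and 0.143 CPM. Those of KRT18 were 314 and 576 CPM, of KRT19 51.0 and 78.2 CPM and of CDH1 0.0163 and 22.0 CPM. Of the epithelial markers, 4 of 6 were tested and edgeR called 0, with 0 at an unadjusted p under 0.05 and 0 calls by DESeq2 or limma-voom. Of the mural and mesenchymal markers, 8 of 10 were tested and 4 were called, TAGLN, CNN1 and LUM as higher and RGS5 as lower in iREC (7 calls without the filter, without iEC F or without iREC C, and 2 without iREC D). The LUM call was lost in 6 of 17 alternatives, among them limma-voom and the fit without iREC F (edgeR adjusted p = 0.0739), and that of RGS5 with the replicate block (0.0536) and without iEC C, iREC D or iREC E. The part of these cells in the PDPN value was not tested.

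**Figure D3:**
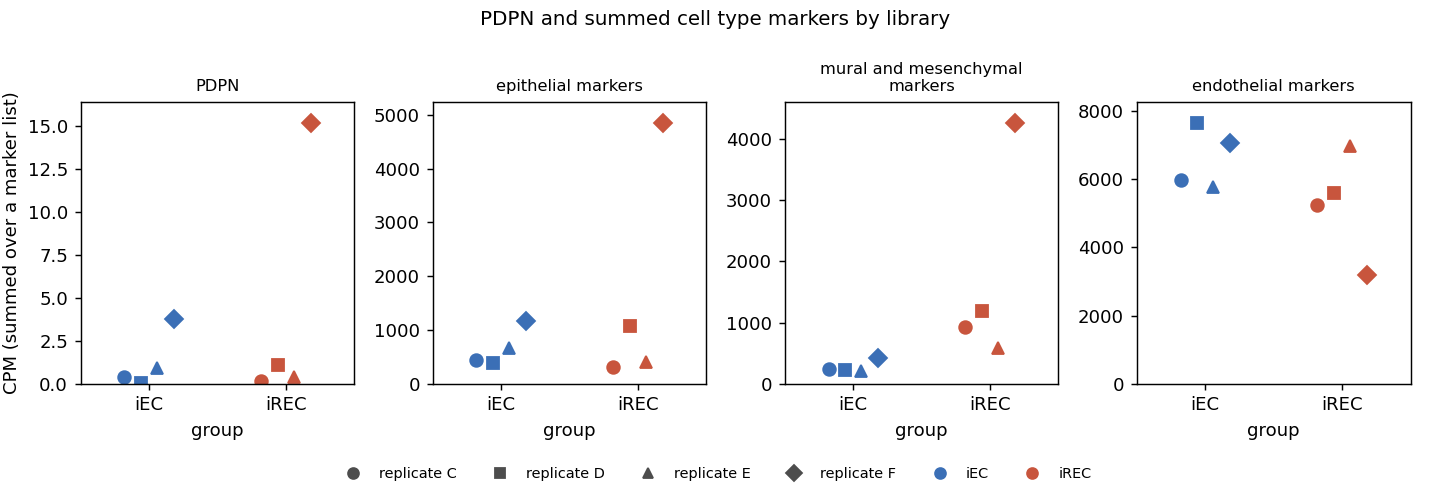
PDPN and the summed levels of 3 marker lists by library, in CPM, with iEC in blue, iREC in red and 1 symbol per replicate letter. Library iREC F is the highest in PDPN (15.2 CPM), in the summed epithelial markers (4855 CPM) and in the summed mural and mesenchymal markers (4267 CPM).

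Podoplanin binds the platelet receptor CLEC1B from outside and, through its tail inside the cell, ezrin and moesin. Of 9 tested partners, 6 were called (25% over all tested genes), 2 higher and 4 lower in iREC (3 calls without iREC D). CD44, a hyaluronan receptor that binds podoplanin, fell from 300 ± 107 to 51.3 ± 15.3 CPM (-2.55 ± 0.31 SE on the log2 scale, edgeR adjusted p = 0.000458), and moesin (MSN) fell (-0.77 ± 0.19, edgeR adjusted p = 0.0161, lost without iREC D). Radixin (RDX) rose from 176 ± 13.2 to 305 ± 47.0 CPM (0.79 ± 0.14 on the log2 scale, edgeR adjusted p = 0.00295). The list median was -0.33 without PDPN and -0.045 with it.

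RELN (ENSG00000189056, chromosome 7, 103471784 to 103989516, minus strand) was nearly undetected. Its counts were 1, 5, 6 and 4 reads in iEC and 6, 8, 9 and 2 reads in iREC. The groups overlapped. They summed to 16 and 25 reads, a ratio of library-scaled totals of 1.59 with a counting interval of 0.817 to 3.19, so no difference was detectable at this depth. In the reelin pathway, 9 genes were tested and 3 called (25% over all tested genes), 2 of them higher, with a list median of -0.08. VLDLR, a reelin receptor that also takes up lipoproteins, rose from 7.92 ± 1.24 to 45.8 ± 8.63 CPM (2.53 ± 0.19 SE on the log2 scale, edgeR adjusted p = 4.36e-05). LRP8, the other reelin receptor, was at 56.0 ± 12.8 and 45.7 ± 15.1 CPM (edgeR adjusted p = 0.424). DAB2, an endocytic adaptor, rose from 149 ± 51.2 to 768 ± 214 CPM (2.36 ± 0.29 on the log2 scale, edgeR adjusted p = 0.000477), and FYN, the kinase that phosphorylates reelin adaptors, fell (-0.79 ± 0.16, edgeR adjusted p = 0.00742). DAB1, the neuronal adaptor of reelin signalling, was not tested. It was at 0.130 CPM in iEC C and at 0 in the other iEC libraries, and at 1.37, 1.07, 0.489 and 8.97 CPM in iREC.

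By level per length, the order of the 8 genes in iEC was NR2F2, NR2F1 (2.17 ± 1.39), MAF (1.01 ± 1.45), FLRT2 (0.685 ± 0.273), PDPN (0.346 ± 0.461), TLL1 (0.317 ± 0.0976), RELN (0.0202 ± 0.0103) and PROX1, in CPM per kilobase (SD, n = 4). NR2F2 was above NR2F1 in every iEC library, the ranges of neighbours from NR2F1 down to TLL1 overlapped, TLL1 was above RELN in every iEC library with no overlap, and RELN and PROX1 could not be ordered. In iREC the order was NR2F1, TLL1 (23.7 ± 8.55), NR2F2, MAF (9.85 ± 3.95), FLRT2 (3.42 ± 1.53), PDPN (1.13 ± 1.98), RELN (0.0325 ± 0.0161) and PROX1. Only NR2F1 stood clear of the next gene, with ranges that did not overlap, and every other neighbouring pair overlapped. The FLRT2 gene model counts 34899 exon bases, against 3707 to 12642 bases for the others, which lowers its level per length.

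**Figure D4:**
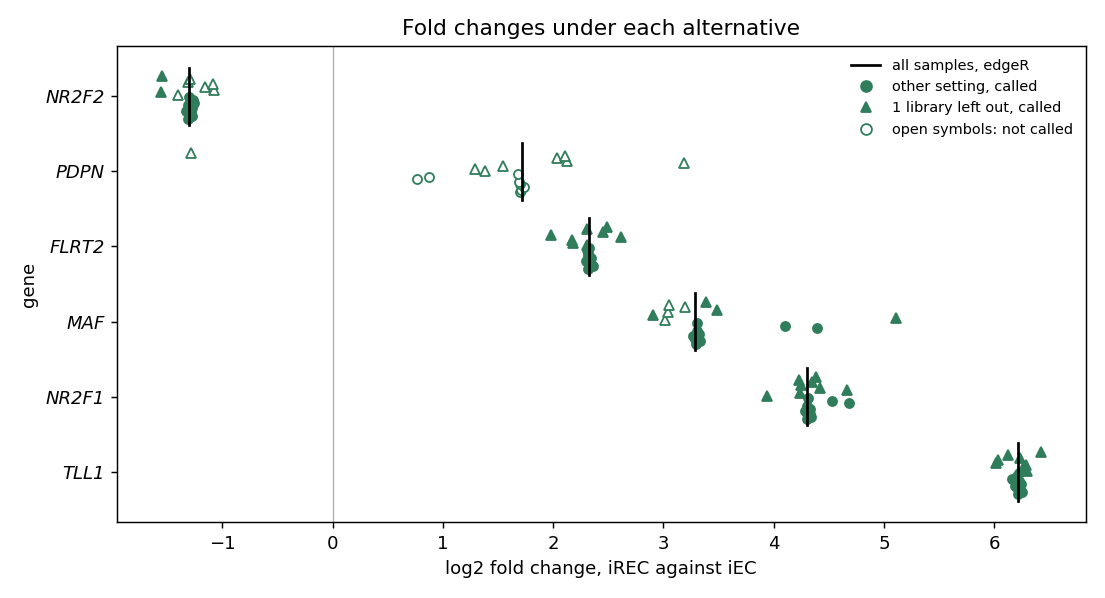
Log2 fold change of the 6 tested fate genes, iREC against iEC, with a black line for the edgeR fit on all samples, circles for other settings, triangles for fits that leave out 1 library, and open symbols where the gene was not called. TLL1, NR2F1 and FLRT2 were called in every fit, MAF and NR2F2 lost the call when certain libraries were left out, and PDPN turned negative without iREC F.

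Around these genes, the list of venous genes moved both ways. With NR2F2, FLRT2 and TLL1, which are on it, set aside, 10 of its genes were tested and 6 called (25% over all tested genes), 3 higher and 3 lower in iREC, with a median log2 fold change of 1.26. SELP, the adhesion molecule P-selectin of venous endothelium, rose from 0.313 ± 0.352 to 52.9 ± 27.2 CPM (7.39 ± 0.76 on the log2 scale, edgeR adjusted p = 0.000216), and the sialomucin EMCN from 4.21 ± 1.89 to 432 ± 156 CPM (6.68 ± 0.49 on the log2 scale, edgeR adjusted p = 4.11e-05). The iEC level of SELP rests on 12 reads or fewer in each library. NRP2, a coreceptor for VEGF-C in veins and lymphatics, rose from 423 ± 114 to 1196 ± 371 CPM (1.5 ± 0.27 on the log2 scale, edgeR adjusted p = 0.0039). APLNR, the apelin receptor of sprouting venous endothelium, fell from 67.3 ± 63.1 to 8.48 ± 4.39 CPM (-2.99 ± 0.69 on the log2 scale, edgeR adjusted p = 0.0121), as did the ectonucleotidase NT5E (-0.97 ± 0.23, edgeR adjusted p = 0.014). EPHB4, the classic venous receptor, was at 179 ± 36.2 and 206 ± 26.1 CPM (0.20 ± 0.16 on the log2 scale, edgeR adjusted p = 0.398).

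The lymphatic list held more rises than falls, but the receptor genes FLT4 and LYVE1 were not among them. With the 4 fate genes on it set aside, 15 genes were tested and 11 called, all 11 higher in iREC, with a median of 1.70. Over all tested genes, 25% were called and 13.2% called as higher. The list was chosen with earlier results of these data known. The scavenger receptors STAB2 and CD36, which sinusoidal and capillary endothelium also makes, rose from 0.185 ± 0.145 to 194 ± 125 CPM (9.92 ± 0.79 on the log2 scale, edgeR adjusted p = 6.32e-05) and from 0.987 ± 0.635 to 143 ± 91.7 CPM (7.20 ± 0.71 on the log2 scale, edgeR adjusted p = 0.000158), where the iEC levels rest on few reads. The mannose receptor MRC1, shared with macrophages and sinusoidal endothelium, rose from 6.72 ± 9.53 to 412 ± 222 CPM (5.94 ± 1.10 on the log2 scale, edgeR adjusted p = 0.00432). FOXC2, a forkhead factor of lymphatic valves, rose from 5.02 ± 1.5 to 41.5 ± 8.84 CPM (3.04 ± 0.27 on the log2 scale, edgeR adjusted p = 9.87e-05), and GATA2, which acts in the same valves, rose from 33.3 ± 3.55 to 48.3 ± 3.39 CPM (0.54 ± 0.12 on the log2 scale, edgeR adjusted p = 0.0109). FLT4, the VEGF-C receptor, was at 201 ± 41.8 and 202 ± 36.7 CPM (0.0079 ± 0.18 on the log2 scale, edgeR adjusted p = 0.981). LYVE1, the hyaluronan receptor of lymphatic capillaries, was at 488 ± 206 and 362 ± 149 CPM (-0.43 ± 0.36 on the log2 scale, edgeR adjusted p = 0.412). SOX18, which switches on PROX1 in the embryo, was at 120, 145, 46.5 and 92.2 CPM in iEC and 55.3 to 59.6 CPM in iREC (-0.82 ± 0.29, edgeR adjusted p = 0.0676, and called without iEC E at 0.00305, by DESeq2 at 0.0308 and with no filter at 0.0483).

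Of the genes for lymphatic growth signals, 17 were tested and 9 called (25% over all tested genes), 8 higher and 1 lower in iREC, with a median of 0.99. TEK, the receptor of the angiopoietins, rose from 58.9 ± 20.6 to 833 ± 272 CPM (3.82 ± 0.35 on the log2 scale, edgeR adjusted p = 0.00011), while its ligand ANGPT2 fell from 1777 ± 234 to 26.5 ± 5.07 CPM (-6.07 ± 0.21 on the log2 scale, edgeR adjusted p = 1.49e-06). SVEP1, an extracellular protein of lymphatic remodelling that binds TIE1, the relative of TEK, was at 13.5, 67.4, 48.3 and 358 CPM in iREC and at 2.93 CPM or less in iEC (6.98 ± 1.32, edgeR adjusted p = 0.00468, not called with limma-voom). VEGFC, the growth factor that drives lymphatic sprouting, was at 8.13 ± 6.37 and 17.6 ± 3.84 CPM (1.11 ± 0.48 on the log2 scale, edgeR adjusted p = 0.118), and was called without iEC D (1.77, edgeR adjusted p = 0.0078) or with limma-voom. ADAMTS3, which activates VEGF-C, was at 3.66, 5.57, 3.91 and 36.4 CPM in iREC and at 1.69 CPM or less in iEC (3.77 ± 0.95, edgeR adjusted p = 0.0181). Its log2 fold change was 2.27 without iREC F, and the call was lost with the replicate block (0.0632), with limma-voom (0.0599) and without iEC E (0.0553). CCBE1, the cofactor of that cleavage, was not tested and was at 0.192 ± 0.0965 CPM in iEC and 1.81 ± 1.33 CPM in iREC.

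A list of arterial identity genes was also examined, which was not limited to genes that NR2F2 is known to hold back. Of 16 tested, 8 were called (25% over all tested genes), 6 higher and 2 lower in iREC, with a median of 0.32 (5 calls without iEC C, iEC F or iREC D). The connexin GJA5 was at 0.130, 16.1, 0.118 and 1.29 CPM in iEC and at 413 to 649 CPM in iREC (6.97 ± 1.27, edgeR adjusted p = 0.00391). HEY2, a Notch target, rose from 5.32 ± 3.08 to 45.4 ± 12.8 CPM (3.09 ± 0.43 on the log2 scale, edgeR adjusted p = 0.000976). EFNB2, the arterial ligand of EPHB4, was at 123, 332, 51.0 and 118 CPM in iEC and at 407 to 602 CPM in iREC. The groups did not overlap (edgeR adjusted p = 0.0247), but the call was lost without iEC C, iEC F, iREC D or iREC E. NOTCH4, an endothelial Notch receptor, fell from 190 ± 43.6 to 64.7 ± 19.0 CPM (-1.56 ± 0.25 on the log2 scale, edgeR adjusted p = 0.00208), and the chemokine receptor CXCR4 fell from 52.0 ± 26.0 to 12.8 ± 4.90 CPM (-2.02 ± 0.39 on the log2 scale, edgeR adjusted p = 0.00503). In iEC D, where NR2F2 was lowest of the iEC libraries, GJA5 and EFNB2 were the highest of them, as were MAF, NOTCH4 and CXCR4. GJA5 went the other way in iREC. It was lowest (413 CPM) in iREC C, where NR2F2 was lowest (33.0 CPM). It was highest (649 CPM) in iREC F, where NR2F2 was highest (94.1 CPM). EFNB2 was lowest in iREC F (407 CPM). With 4 libraries a group these are descriptions only, and a link to NR2F2 was not tested.

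**Figure D5:**
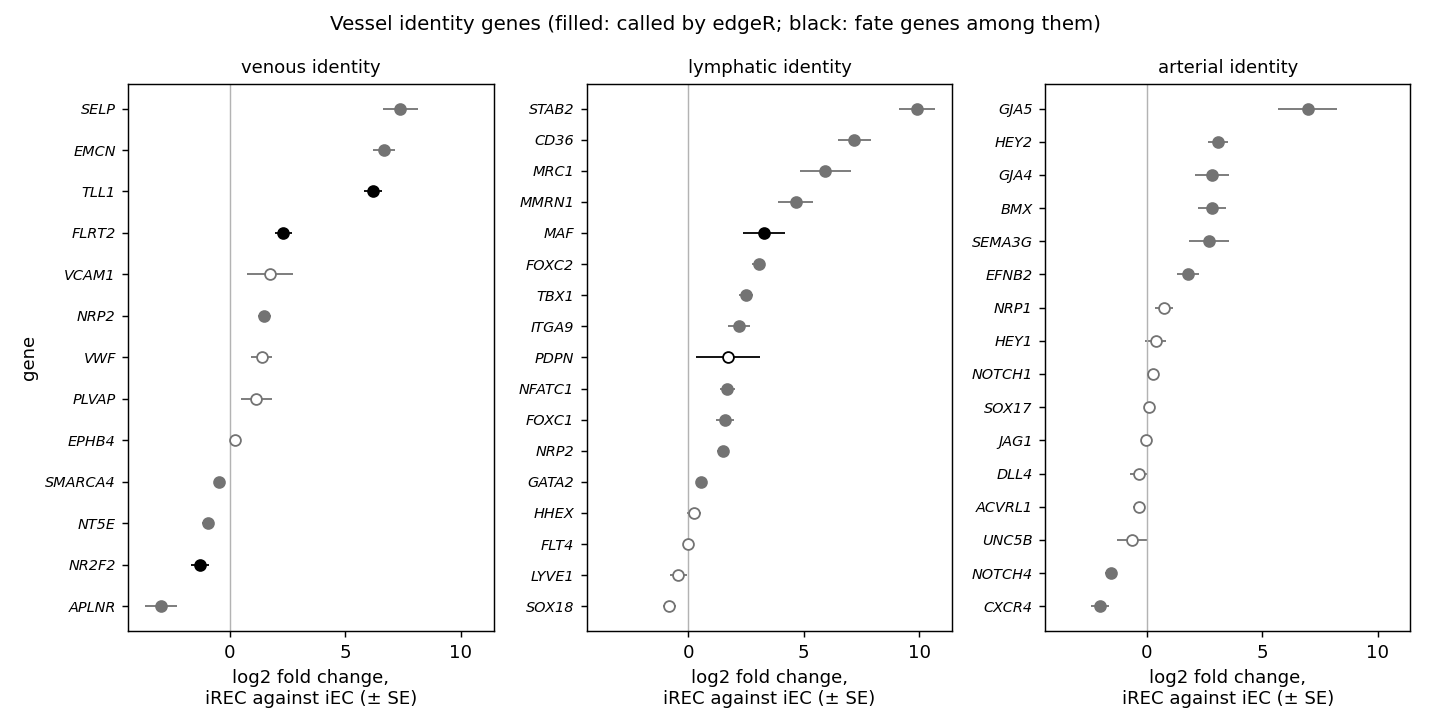
Log2 fold change, iREC against iEC, with its SE, of every tested gene of the venous, lymphatic and arterial lists. Filled points were called by edgeR and black points are the fate genes among them (NR2F2, FLRT2, TLL1, MAF and PDPN); venous and arterial genes lie on both sides of 0, and all called lymphatic genes lie above it.

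The authors' deposited table gives the same signs. Its log2 fold changes are 4.29 for NR2F1, -1.32 for NR2F2, 3.29 for MAF, 2.30 for FLRT2 and 6.21 for TLL1, with adjusted p-values of 3.44e-17, 0.00636, 0.00897, 8.35e-09 and 6.91e-70 in that order. For PDPN, the authors' deposited table lists a log2 fold change of 1.68 and an adjusted p-value of 1, and for PROX1 and RELN adjusted p-values of 0.978 and 0.641.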

How the data were processed

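Poly-A RNA of 8 samples was sequenced. The authors deposited raw read counts per gene, per the file headers, in a table that also holds their log2 fold changes and p-values. Per the submitters' processing notes, fastp and HISAT2 2.0.5 with the hg38 build were used, and the counter and annotation are not given in the sources used here. Gene lengths and coordinates (1-based, hg38) come from the table. Overlapping exons were read from GENCODE release 29 and promoters from RefSeq (6 of the 8 genes matched a start within 500 bases).

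From the counts, genes were kept by filterByExpr of edgeR 4.0.16 (R 4.3.3), libraries scaled by TMM, and groups compared by the quasi-likelihood F-test with Benjamini-Hochberg adjustment over 15330 genes. The threshold for a call was an adjusted p of 0.05. SEs come from the coefficient and the F statistic, and a prior count of 2 went into log2 CPM. Counting intervals (95%) cover counting error only. The test was tried on simulated counts.

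The 8 genes, the gene lists and the naming rule were chosen with earlier results of these data known. The rule named the 8 genes, up to 3 called genes in each direction per list with at least 1 CPM on average in a group, genes overlapping the 8, and 23 genes named beforehand. KRT8, COL3A1, WT1, TLL2 and CHRD lie outside it, having been picked once their values were known. Some named genes are not reported here. The alternatives comprised other scalings, no filter and a stricter filter, DESeq2 1.42.0, limma-voom (limma 3.58.1), a replicate block, a fit restricted to protein-coding genes, and omission of each sample. No deposited count column lacked a sample.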

Additional observations from a re-analysis of the deposited data

Results flagged for a closer look

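The check covered 165 groups of 4 libraries (each named gene and each summed marker list, in iEC and in iREC). Genes were on log2 CPM and marker lists on log2(CPM + 1). In 15 groups, the gap of a library to the nearest other took up more of the range than Dixon's 95% critical value allows. About 8.25 would be flagged by chance if the groups were independent and normally spread. Groups with few or no reads are not, so this number is only a rough guide. Of the 15 flagged groups, 3 were of the 8 fate genes. TLL1 in iEC F stood at 0.50 against 1.48 to 1.58 in the other iEC libraries. PROX1 in iREC D stood at -0.67 against -2.39 to -2.35, and RELN in iEC C at -2.36 against -1.26 to -1.04, both of which rest on fewer than 10 reads.

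In iREC F, FLRT3 stood at 4.37 against 0.52 to 1.04 in the other iREC libraries, PECAM1 at 8.95 against 9.67 to 9.74 and ADGRL4 at 5.91 against 7.17 to 7.28. In iREC C, LRP8 stood at 6.10 against 5.23 to 5.30, BMPER at 5.84 against 6.85 to 6.99 and MSN at 10.35 against 9.75 to 9.83. In iEC F, LRP8 stood at 5.21 against 5.92 to 6.0 and TAGLN at 5.87 against 4.67 to 4.80. In iEC C, NR2F1-AS1 stood at 0.45 against 1.86 to 2.13. DAB1 in iEC C stood at -1.94 and TTR in iEC C at -1.62, each against -2.94 in the 3 other iEC libraries, which had no read. RUNX1 in iEC E stood at 5.54 against 4.61 to 4.66.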

How the results depend on the processing

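Calls over all genes numbered 3829 and ran from 2660 (without iREC D) to 4664 (DESeq2), with 3334 under the replicate block. The count of called fate genes was 5 under every alternative that kept all samples, the replicate block included, and 3 to 5 when 1 library was left out. It was 3 without iEC C, iEC F, iREC D or iREC E, where NR2F2 and MAF lost the call, and 4 without iEC E or iREC C, where NR2F2 did. The log2 fold change of PDPN ran from -1.29 to 3.19 when 1 library was left out, and the stricter filter dropped it. FLT4 turned to -0.016 without the filter and ran from -0.11 to 0.14 when 1 library was left out. FLRT3 was -0.83 with limma-voom and -0.89 with the replicate block, and ran from -1.82 to 0.48 when 1 library was left out. Counts of called list genes that moved were as follows. When 1 library was left out they ran from 5 to 9 for arterial genes, 2 to 4 for orphan receptors, 4 to 9 for FLRT partners, 3 to 6 for podoplanin partners, 1 to 3 for endothelial, 2 to 7 for mural, 0 to 1 for epithelial, 1 to 2 for mesothelial and 0 to 1 for pluripotency markers. Without the filter there were 5 calls for the tolloid list, 4 for endothelial, 7 for mural and 1 for epithelial markers. The replicate block gave 5 for the tolloid list, 1 for endothelial, 1 for mesothelial and 0 for pluripotency markers, limma-voom 1 for mesothelial and 0 for pluripotency markers, DESeq2 4 for endothelial markers, and the stricter filter 0 for neural markers. Why these counts moved was not tested. Over the 1169 values of named genes under alternatives, 1082 kept direction and side of the threshold, 65 lost a call, 12 gained a call and 10 changed sign. The replicate letters paired the libraries at most in part: deviations of same-letter libraries correlated at 0.168, -0.0794, 0.0291 and 0.250 for C, D, E and F, and 2 of 4 iEC and 1 of 4 iREC libraries correlated best with their own letter. The F libraries had the highest correlation of any iEC and iREC pair. Whether a shared letter marks a shared batch was not tested. Changes of scaling moved the median of all genes by 0.032 log2 units at most. PROX1 and RELN, with 21 and 41 reads over 8 libraries, were tested only without the filter and not called there.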
